A study of Mus musculus with 8 samples.

Results

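The proteasome subunit genes were followed across the cells of erythroblastic islands, the clusters in which red cells mature around a macrophage. All rows of the count table were taken whose symbol starts with Psma, Psmb, Psmc, Psmd, Psme or Psmf and a digit, without the immunoproteasome genes Psmb8, Psmb9 and Psmb10. This gave 43 of 19669 genes. They held 7 alpha and 7 beta subunits of the 20S core, 6 ATPases and 3 other base subunits of the 19S cap, 8 lid subunits, 3 assembly chaperones of the cap, 5 activators and 1 inhibitor. The remaining 3 were Psma8 and Psmb11, core subunits of testis and thymus, and Psmc3ip, a recombination factor that shares the prefix but is not a subunit. No measured value chose these genes.

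The proteasome is the protease that degrades proteins tagged with ubiquitin. Stacked alpha and beta rings form the 20S core, whose active sites face an inner chamber. The 19S cap binds the ubiquitin chain, unfolds the protein with its ATPases and feeds it into the core. Other activators, among them PA28 alpha and beta, PA28 gamma and PA200, can dock on the core in place of the cap, without using ATP. Maturing red cells remove most of the proteins that the mature cell does not keep, and the ubiquitin-proteasome system is known to take part in this.

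Cells came from male Sle1.Yaa mice, a lupus-prone strain, and were read as 10x Genomics v3.1 libraries. The labels give 2 bone marrow and 2 spleen libraries of mice with a human TLR8 transgene, labelled anemic, and 3 bone marrow libraries and 1 spleen library of mice without it, labelled non-anemic. The labels do not give ages, the promoter of the transgene or any pooling of animals. The table names no library for any of its 24942 cells. They were therefore treated as 1 pooled sample, without a comparison of genotypes or tissues and without p-values.

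Cell barcodes fell into 8 sorted runs of 447 to 6787 cells, which served as unnamed libraries for ranges. Across runs, 287 barcodes occurred more than once, in 1031 cells, and any pair of runs shared 15 to 156. The table held 248384567 UMIs, counts of single RNA molecules, with a median of 7554 per cell. Clusters were named from marker lists, and 9 of 34 were erythroid-like, with 9691 cells. These cells were split by the share of their UMIs from globin genes, which rises as red cells mature. The 5 stages were progenitor-like (under 2% globin, 1088 cells), early (2 to 20%, 1675 cells), mid (20 to 60%, 3013 cells), late (60 to 80%, 2044 cells) and reticulocyte-like (80% or more, 1871 cells). Alas2, the first enzyme of heme synthesis in red cells, stood at 28.8, 485.7, 2140.2, 6109 and 18651 in this order. Kit, a receptor of early progenitors, was at 16.3 at most, so that the progenitor-like stage had little of this defining marker, while Gata1, the erythroid transcription factor, stood at 117.8 there.

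A level here is a gene's UMIs per 1000000 UMIs outside the globin genes, with an exact 95% Poisson interval that covers counting error only. Leaving globin out matters, because it made up 0.67% of the UMIs of progenitor-like cells and 89.8% of those of reticulocyte-like cells. The median cell held 3599, 9159, 5228, 2324.5 and 816 UMIs outside globin over the 5 stages, so the last stage is the least precisely measured. Of the 1088 progenitor-like cells, 695 came from 1 cluster of low depth and 170 carried a barcode found in more than 1 run. Another 287 came from a cluster with a median of 22222 UMIs per cell, against 1508 in the cluster of low depth. Of that deep cluster's cells, 86.9% were from 1 run. Levels are sums of UMIs over cells, so its cells weigh more in the pooled progenitor-like values.

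The summed level of the 14 core subunits was lower at each later stage. It was 4729.7, 3801, 2643, 1970.0 and 1432 from progenitor-like to reticulocyte-like cells, with a run range of 2642 to 6321 in the first stage and 738 to 1826 in the last. These 2 ranges did not overlap. Per cell the core held 41.1, 44.5, 17.2, 5.47 and 1.41 UMIs, so on this scale it was not highest in the first stage. Of the 14 genes, 10 had a lower level at each successive stage, and the reticulocyte-like level was 0.146 to 0.828 times the progenitor-like one, with a median of 0.261. The share of all genes with such a pattern was not counted, here or for the stage counts below. On this scale the median gene itself shifted, by a log2 ratio of −0.13 from progenitor-like to mid cells. From mid to reticulocyte-like cells it shifted by −1.14, so a decline in level is not particular to these genes.

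Psma4, an alpha ring subunit, had the lowest of these ratios. Its level was 308.9 (95% interval 297.8 to 320.4) in progenitor-like cells, then 189.6, 104.4, 61.5 and 45.1 (35.9 to 55.9) in reticulocyte-like cells. Over runs it had a low of 135.0, a median of 291.2 and a high of 467.3 in the first stage, and 22.4, 43.4 and 75.1 in the last, so the 2 stages did not overlap. Psmb5, the beta subunit with the chymotrypsin-like site, stood at 357.5, 229.1, 137.6, 100.8 and 89.1. Its runs spanned 217.2 to 446.8 in progenitor-like cells and 37.2 to 125.8 in reticulocyte-like cells. Psma2, another alpha ring subunit, kept the highest share of its level, with 363.1, 356.6, 255.2, 325.9 and 300.6. Psma1 departed in another way, with 231.0, 286.1, 255.0, 102.6 and 47.3, a peak in early cells.

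The 17 subunits of the 19S cap went the same way, with a summed level of 3882, 3413, 2812, 2023 and 1394. Of them, 13 were lower at each successive stage, with a median ratio of reticulocyte-like to progenitor-like of 0.213. Psmd7, a lid subunit that pairs with the deubiquitinase Psmd14, had the lowest, 0.0994, with 415.4, 270.7, 185.1, 91.8 and 41.3. Psmc3, an ATPase, held its level longer, with 319.9, 334.4 and 300.4 in the first 3 stages, before 163.1 and 66.9. Psmd4, the ubiquitin receptor of the base, was the one cap gene that ended above its start, at 335.5, 286.7, 229.5, 266.4 and 463.6, although per cell it held 2.91 UMIs in the first stage and 0.456 in the last. In reticulocyte-like cells its runs had a low of 304.3, a median of 422.7 and a high of 564.1, against 171.4, 238.3 and 312.5 in mid cells. Those ranges overlapped at their edge. In progenitor-like cells the runs of Psmd4 spanned 169.0 to 389.8, with a median of 305.2, and overlapped those of reticulocyte-like cells further. Psmd8, a lid subunit, changed little in level, with 226.4, 215.4, 182.4, 188.1 and 207.6.

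**Figure D1:**
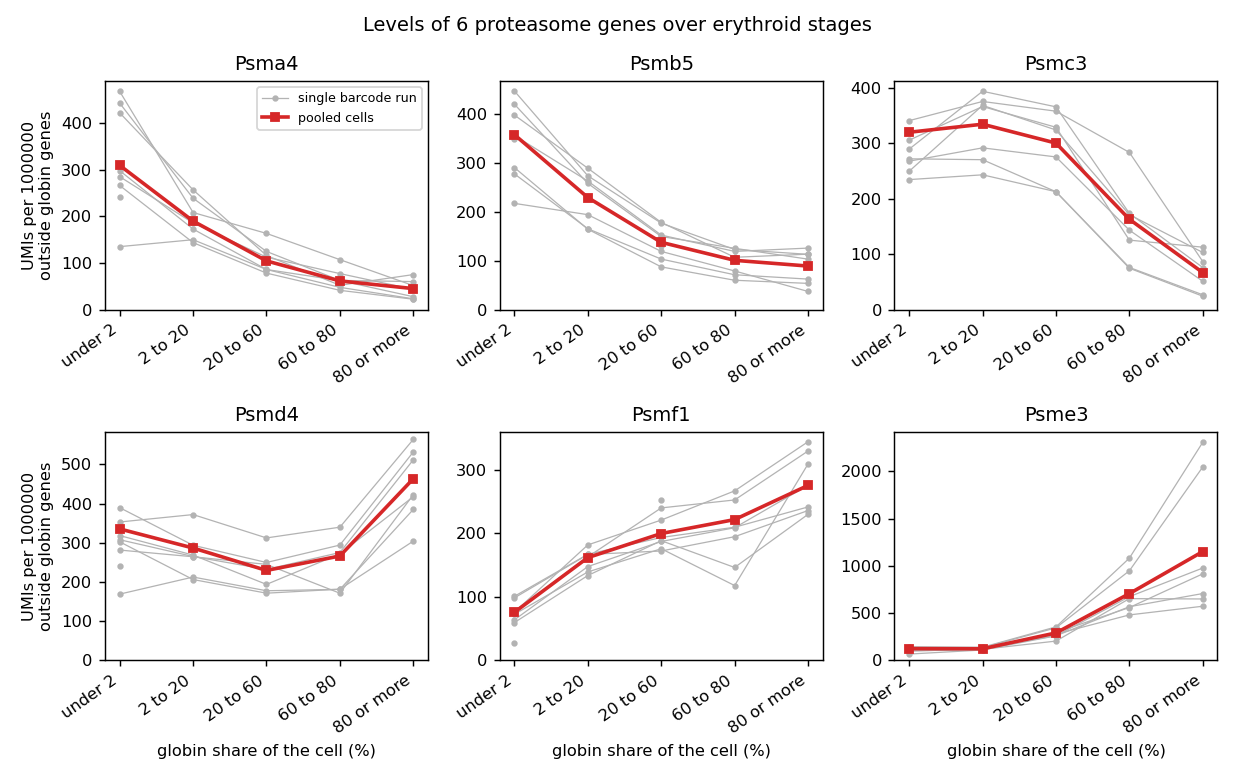
Levels of 6 proteasome genes (UMIs per 1000000 UMIs outside globin genes) in 5 erythroid stages set by the globin share of the cell (%), with pooled cells in red and each barcode run with at least 20 cells in grey. Psma4 and Psmb5 decline throughout, Psmc3 declines after 60% globin, and Psmd4, Psmf1 and Psme3 are highest at 80% or more on this scale, but not on totals that count globin.

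The activators did not all follow the core. Psme1 stood at 172.7, 158.8, 88.0, 77.9 and 155.5 over the stages, and Psme2 at 130.5, 89.9, 72.3, 119.2 and 87.5. Both were thus lower at each step up to mid cells, as the core was, but not at each later step. Psme3, which encodes PA28 gamma, a nuclear activator of the core, stood at 123.4 (116.4 to 130.7), 122.0, 289.9, 706.2 and 1152 (1103 to 1202), 9.33 times higher in the last stage than in the first. In progenitor-like cells its runs had a low of 66.1, a median of 105.2 and a high of 143.7. In reticulocyte-like cells they had a low of 572.6, a median of 915.5 and a high of 2309, so all 7 runs compared lay above every run of the earlier stage. Per cell, however, Psme3 held 1.07, 1.43, 1.88, 1.96 and 1.13 UMIs, and on plain totals that include globin its level was 122.6, 109.0, 172.3, 215.7 and 117.9. When globin is counted, reticulocyte-like cells therefore stood below mid and late cells, near progenitor-like cells and above early cells.

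Psmf1, which encodes PI31, a protein first described as an inhibitor of the core, was the one gene of the 39 measured in this series of stages whose level was higher at each step. It stood at 75.7 (70.2 to 81.4), 161.8, 199.8, 221.8 and 275.6 (252.1 to 300.6). Per cell it held 0.657, 1.89, 1.30, 0.615 and 0.271 UMIs, and on plain totals its level was 75.2, 144.6, 118.7, 67.7 and 28.2, so on both of these scales it peaked in early cells and ended below its start. Its runs spanned 26.8 to 100.9 in progenitor-like cells and 230.0 to 344.4 in reticulocyte-like cells, with no overlap. The 3 cap chaperones peaked between these ends. Psmd5, which binds ATPase subunits during cap assembly, stood at 64.3, 69.4, 112.2, 109.1 and 21.7, and Psmd10, also known as gankyrin, at 41.5, 53.0, 61.8, 73.2 and 47.8. Psmd9, the third, peaked in early cells, with 157.0, 221.4, 147.1, 91.7 and 45.1. Psme4, which encodes PA200, differed little, with 53.2, 55.7, 62.3, 74.7 and 53.3.

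**Figure D2:**
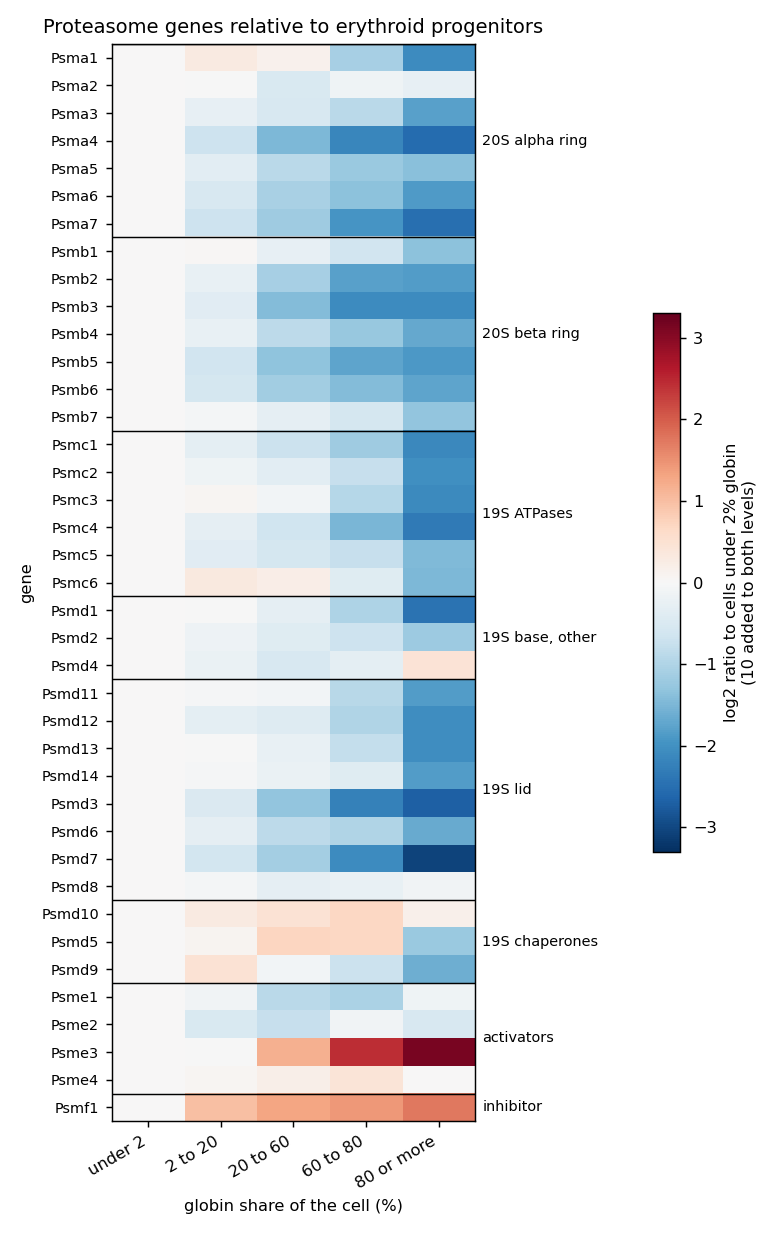
Log2 ratio of each gene's level to its level in progenitor-like cells (under 2% globin), after adding 10 to both, for 39 proteasome genes in rows grouped by role and 5 stages in columns. The 20S and most 19S rows turn blue (lower) with maturation, while Psme3 and Psmf1 turn red (higher) on this scale, though not on plain totals in the last stage, and Psmd4 ends slightly above its start.

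Because every count in a cell enters the same total, the genes were also set against the core itself, as UMIs per 100 UMIs of the 14 core subunits. This ratio needs no scaling to a total, and it is compared here between classes, not read as a number of subunits. Psme3 stood at 2.61, 3.21, 11.0, 35.8 and 80.4 per 100 core UMIs over the stages, with a run range of 1.05 to 4.31 in progenitor-like cells and 32.6 to 312.7 in reticulocyte-like cells. Psmf1 stood at 1.60, 4.26, 7.56, 11.3 and 19.2. The cap, in contrast, stayed near the core, at 82.1, 89.8, 106.4, 102.7 and 97.4 per 100.

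Outside the erythroid cells the pair of regulators was low. For Psme3, though, the progenitor-like ratio given above lay within the range of the other classes. In the 14 other named classes Psme3 ranged from 0.93 per 100 core UMIs in monocyte-like to 2.69 in endothelial-like or stromal-like cells, and its level was 65.6 or less in each class. Psmf1 was 0.93 per 100 or less in each of them, and its level was 27.2 or less. Cap subunits also stood lower against the core in those classes, from 47.6 per 100 in basophil-like or mast-like cells to 78.7 in megakaryocyte-like cells, against 82.1 to 106.4 in the erythroid stages. Run ranges of the cap ratio overlapped, with 61.7 to 115.6 in progenitor-like cells and 54.2 to 91.4 in endothelial-like cells. Psme1 and Psme2, which encode PA28 alpha and beta and are induced by interferon gamma, followed another order. Their sum was 6.41, 6.54, 6.07, 10.0 and 17.0 per 100 core UMIs over the erythroid stages, against 9.51 in megakaryocyte-like to 32.5 in T-like or NK-like cells in the 14 other classes. The first 3 stages thus lay below each of those classes, while the value of reticulocyte-like cells lay within their range, above the 14.4 of neutrophil-like and below the 25.2 of B-like cells.

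**Figure D3:**
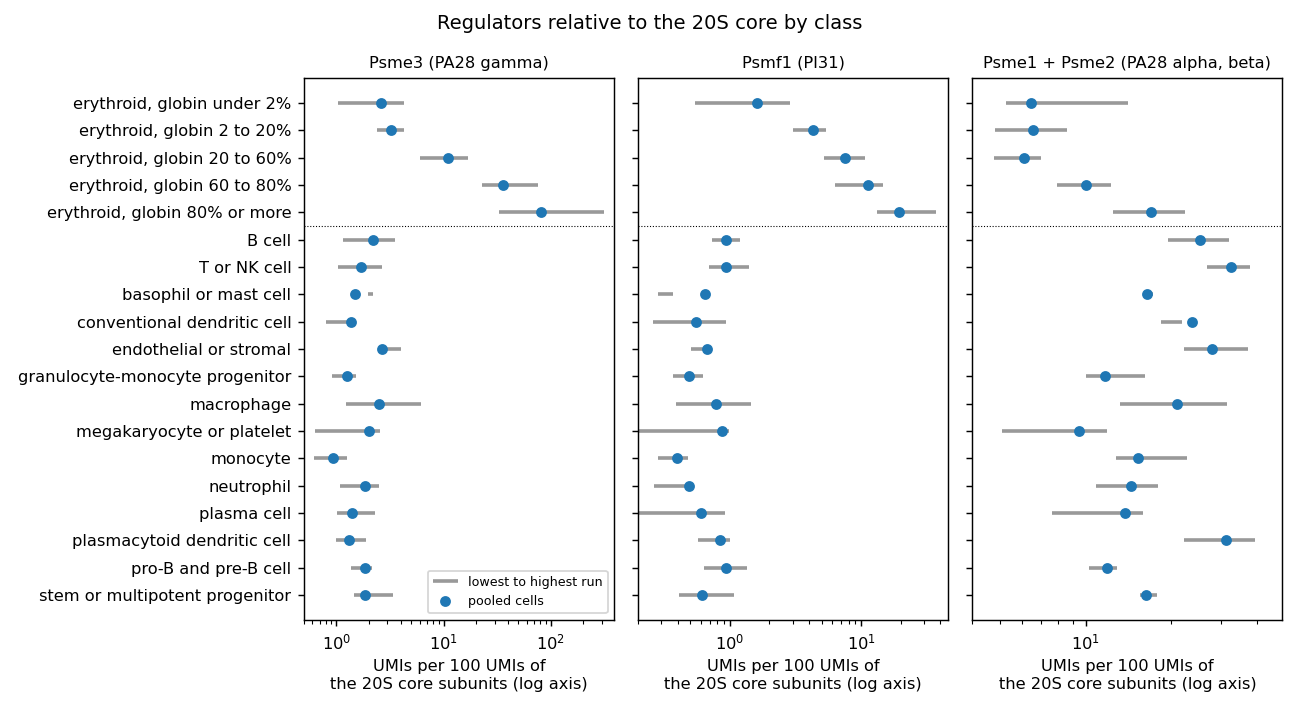
UMIs of Psme3, of Psmf1 and of Psme1 plus Psme2 per 100 UMIs of the 14 core subunits (log axis), in 5 erythroid stages above the dotted line and 14 other classes below it. Dots are pooled cells and grey lines join the lowest and highest run with at least 20 cells, cut at the left edge where a run held none; Psme3 and Psmf1 climb over the stages to 80.4 and 19.2, above every other class.

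Promoter windows are printed for 4 genes that moved in different directions, Psme3, Psmf1 and Psmd4, with their highest level outside globin in reticulocyte-like cells, and Psmb5, a core gene that declined. Each is the 250 bases before the gene's start in RefSeq GRCm38.p6, written 5′ to 3′ on the gene's strand, with matches to 3 searched motifs in capitals. The motifs were AGATAA (bound by Gata factors), TGACNNNGC (the core of the antioxidant response element) and CCAAT (the CCAAT box), on both strands, and none of the marked matches overlaps another. In the GENCODE M21 annotation of the same build the genes span chr11:101316213-101323537 for Psme3, chr2:151715812-151744186 for Psmf1, chr3:95032694-95042614 for Psmd4 and chr14:54614119-54618022 for Psmb5. The windows lie at chr11:101315963-101316212 (plus strand) for Psme3, chr2:151741311-151741560 (minus strand) for Psmf1, chr3:95042615-95042864 (minus strand) for Psmd4 and chr14:54617996-54618245 (minus strand) for Psmb5.
Psme3: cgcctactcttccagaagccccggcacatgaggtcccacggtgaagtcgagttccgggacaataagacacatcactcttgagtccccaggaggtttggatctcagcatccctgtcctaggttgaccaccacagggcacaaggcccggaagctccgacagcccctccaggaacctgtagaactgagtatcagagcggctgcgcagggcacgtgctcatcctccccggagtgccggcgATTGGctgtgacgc
Psmf1: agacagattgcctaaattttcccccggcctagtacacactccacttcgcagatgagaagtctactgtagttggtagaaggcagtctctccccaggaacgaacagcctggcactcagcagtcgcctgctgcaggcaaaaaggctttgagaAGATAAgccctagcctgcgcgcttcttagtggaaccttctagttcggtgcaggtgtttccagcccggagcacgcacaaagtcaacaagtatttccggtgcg
Psmd4: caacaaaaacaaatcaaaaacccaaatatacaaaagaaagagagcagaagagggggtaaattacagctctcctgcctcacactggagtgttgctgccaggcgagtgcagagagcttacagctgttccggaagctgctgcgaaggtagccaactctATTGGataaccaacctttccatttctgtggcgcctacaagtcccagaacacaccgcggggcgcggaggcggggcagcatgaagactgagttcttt
Psmb5: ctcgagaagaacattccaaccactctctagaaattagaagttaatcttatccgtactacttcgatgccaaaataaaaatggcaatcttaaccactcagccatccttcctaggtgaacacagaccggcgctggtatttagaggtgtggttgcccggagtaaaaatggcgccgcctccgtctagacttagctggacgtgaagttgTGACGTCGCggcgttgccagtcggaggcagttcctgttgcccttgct
Psme3 and Psmd4 each held 1 CCAAT box, read as ATTGG on the gene's strand, 14 and 95 bases before the start. Psmf1 held an AGATAA 101 bases before its RefSeq start, which lies inside the longer gene of the GENCODE annotation. Psmb5 held TGACGTCGC 47 bases before its RefSeq start, which also lies inside the GENCODE gene. Over the 36 of 43 genes with a window, AGATAA occurred in 5.56% (Psmf1 and Psmd9), against 11.4% of 27025 genes with windows. TGACNNNGC occurred in 13.9% against 11.5%, in Psmb5, Psmb6, Psmc6, Psmd12 and Psmd9, and CCAAT in 38.9% against 37.5%. A match is a run of letters, not a shown binding site.

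Mid cells were then compared with progenitor-like cells, gene by gene. Differences are log2 ratios after adding 10 to both levels, centred on the median of all genes with a mean level of at least 20. A gene counts as higher or lower if it differed at least 2-fold and had that sign in every run with 20 cells of both classes. Of the 40 members measured, 2 were higher, against 19.6% of all 5097 genes, and 6 were lower, against 17.9%. Psmf1 was higher by 1.42 (runs 0.78 to 2.67) and Psme3 by 1.30 (0.96 to 1.88). Psma8, Psmb11 and Psme2b fell under the minimum. Psme2b, a near copy of Psme2, may share reads with it, and both are uncertain in that respect.

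The 6 lower genes were Psma4, Psmb3, Psmb5, Psmd3, Psma7 and Psmb6. All but Psmd3, a lid subunit, belong to the core. Psma4 differed by −1.35 (runs −1.69 to −0.43), with 104.4 in mid cells against 308.9 in progenitor-like cells. Psmb3, a beta ring subunit, stood at 136.7 in mid cells against 386.1 in progenitor-like cells, a difference of −1.30. Psmb5 differed by −1.19, Psmd3 by −1.17, Psma7 by −1.05 and Psmb6, which holds the caspase-like site, by −1.01. In all 8 runs these genes were lower in mid cells. Without the clusters of low depth, which gave most progenitor-like cells, 4 were lower, and Psma7 and Psmb6 were no longer called. Psma7 also lost its call without run 2, Psmb6 without run 3 or 4, and Psmd3 without run 6. The share of members called lower, 6 of 40, was near that of all genes.

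By role, the median difference was −0.86 for the core (runs −1.39 to −0.06) and −0.27 for the cap (runs −0.55 to 0.17), against 0 for the median gene. The core spanned −1.35 (Psma4) to 0.27 (Psma1) in the alpha ring and −1.30 (Psmb3) to −0.15 (Psmb1) in the beta ring. The ATPases spanned −0.59 (Psmc1) to 0.34 (Psmc6), the other base subunits −0.40 (Psmd4) to −0.17 (Psmd1), and the lid −1.17 (Psmd3) to 0.03 (Psmd11). The 3 chaperones had a median of 0.61, from 0.04 (Psmd9) to 0.85 (Psmd5). Psme1, at −0.77, was the lowest activator, with Psme3 the highest, and Psmc3ip stood at −0.41. Over all members the median was −0.38, with runs from −0.68 to 0.13 and 7 of 8 below 0. With runs weighted equally 10 members were lower, and on uncentred plain totals none was higher and 24 were lower. The share of all genes was not counted under these alternatives.

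Reticulocyte-like cells were compared with mid cells in the same way. Of 39 members measured, 7 were higher, against 17.4% of 3863 genes, and 2 were lower, against 13.8%. The median gene had shifted by −1.14 before centring, so a gene with an equal level in both stages counts as higher here. The 7 higher genes were Psme3 (3.09, runs 2.11 to 4.06), Psmd4 (2.12, runs 1.61 to 2.64), Psme1 (1.89), Psmf1 (1.58), Psme2 (1.38), Psma2 (1.37) and Psmd8 (1.32). Each had this sign in all 7 runs. Without centring, Psme3 alone stayed past 2-fold and 20 members were lower, and on plain totals that count globin all 7 reversed, Psme3 to −0.51 and Psmd4 to −1.35. How many of all genes were lower on these scales was not counted.

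The 2 lower genes were Psma1, by −1.07, with 47.3 in reticulocyte-like cells against 255.0 in mid cells, and Psmd1, a scaffold of the cap base, by −1.01, with 28.3 in reticulocyte-like cells against 159.4 in mid cells. Without run 1, 4, 5, 7 or 8, or without the cells with repeated barcodes, Psmd1 was no longer called. The core had a median of 0.32 (runs −0.05 to 0.44) and the cap of −0.50 (runs −0.57 to −0.03). Within the cap, Psmd4 and Psmd8 stood apart from the ATPases, which spanned −0.88 (Psmc3) to 0.27 (Psmc5), and from Psmd7, the lowest lid gene at −0.79. The beta ring spanned 0.07 (Psmb1) to 0.56 (Psmb5), the chaperones −0.81 (Psmd5) to 0.83 (Psmd10), and Psme4, the lowest activator, stood at 0.95. The median over all members, 0.13 (runs −0.12 to 0.30), was within the spread of runs around 0 and turned to −1.01 uncentred.

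**Figure D4:**
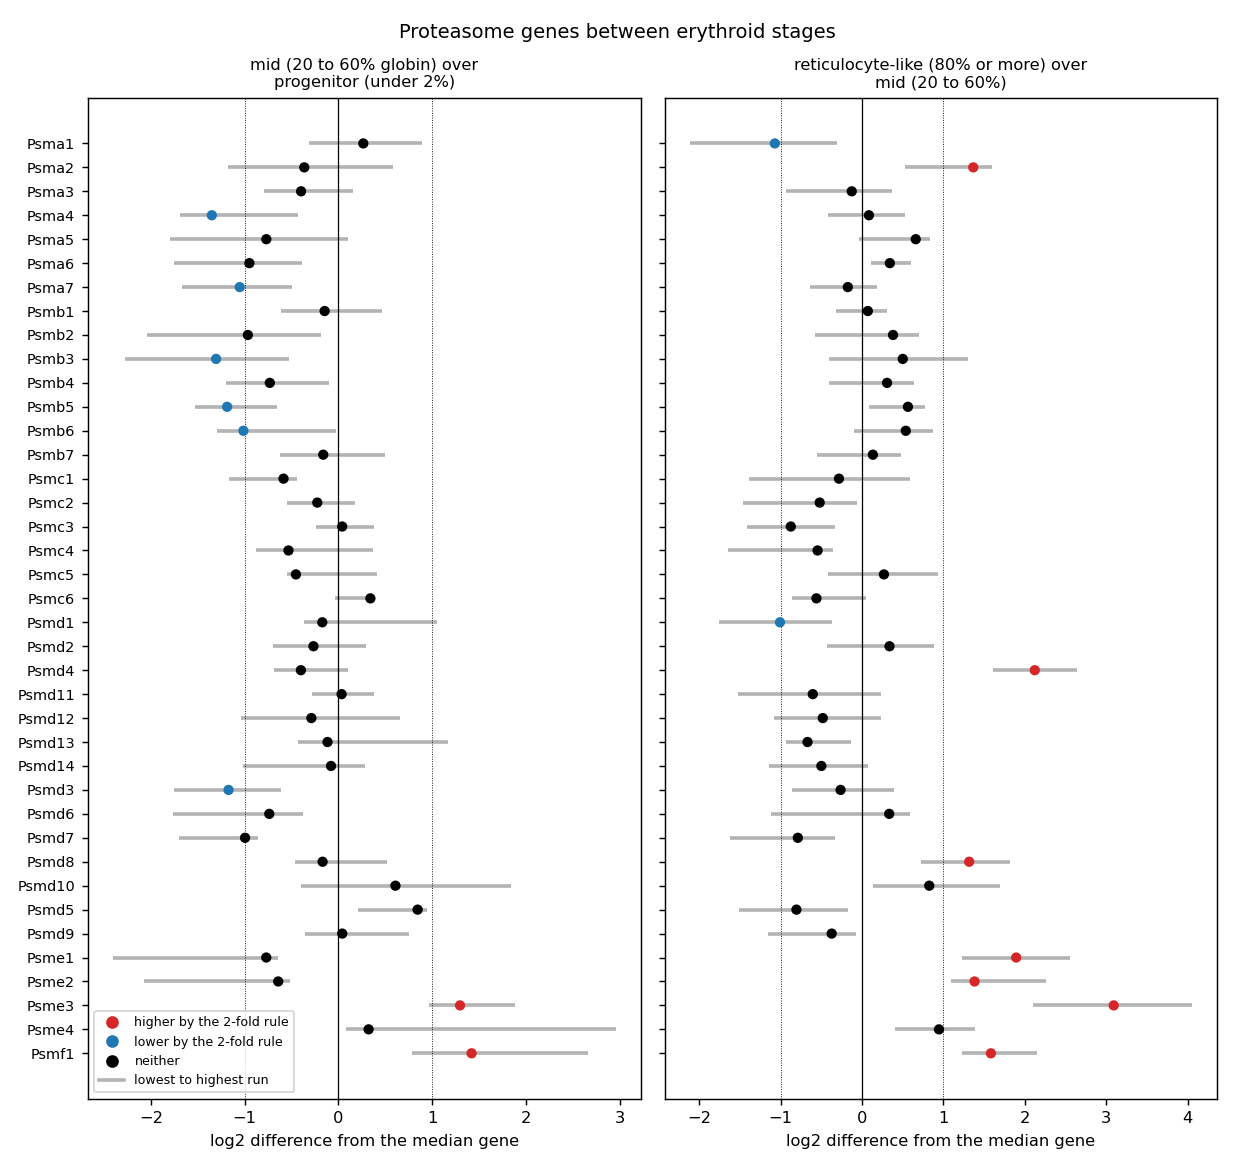
Centred log2 difference of each proteasome gene, in mid over progenitor-like cells (left) and reticulocyte-like over mid cells (right), with grey lines from the lowest to the highest run and dotted lines at 2-fold. Core genes make up most of the blue (lower) points on the left, and Psme3 at 3.09 and Psmd4 at 2.12 lead the red (higher) points on the right.

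On the scale outside globin, markers of other cells also stood higher at later stages. The summed level of 20 neutrophil markers was 954, 999.9, 1824, 3758.5 and 8923 over the stages, with 1001 to 22753 across runs in reticulocyte-like cells against 79.4 to 5486 in mid cells. None of the 20 was at 0 in any stage, and S100a8, a neutrophil calprotectin subunit, reached 3112 in reticulocyte-like cells. On plain totals S100a8 stood at 296.2, 288.6, 360.4, 385.3 and 318.6 over the stages. Per cell it held 2.59, 3.78, 3.94, 3.50 and 3.06 UMIs, so on neither scale was it highest in the last stage. Of the 19 macrophage markers, 2 were at 0 there and the sum was 318.0, against 1 at 0 and a sum of 130.8 in mid cells. Psme1 stood at 155.5 in reticulocyte-like cells against 88.0 in mid cells, and at 105.9 in neutrophil-like cells. Psme3 stood at 1152 in reticulocyte-like cells and at 65.6 or less in each other named class, and Psmf1 at 275.6 in reticulocyte-like cells and at 27.2 or less in each other named class. The part of foreign RNA in the values of these stages was not tested.

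The exchange of core subunits for their immunoproteasome counterparts is given as a share of UMIs, with exact binomial 95% intervals. Psmb8 made up 13.8% (12.7 to 14.9), 2.83%, 4.51%, 14.0% and 31.7% (25.8 to 38.0) of Psmb8 plus Psmb5 over the stages, against 85.2% in B-like and 86.2% in T-like or NK-like cells. Psmb10 made up 26.3%, 8.81%, 4.78%, 6.83% and 17.3% of Psmb10 plus Psmb7, and Psmb9 13.2%, 17.7%, 21.1%, 14.1% and 33.0% of Psmb9 plus Psmb6. In early and mid cells, Psmb5 thus held nearly all of its pair. The last stage rests on 76 UMIs of Psmb8 and 164 of Psmb5. The level of neutrophil markers outside globin was highest there, and the part of foreign RNA was not tested.

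Other genes of the pathway, 33 in the table, were taken from lists of assembly factors, further cap subunits, shuttles, ubiquitin genes and transcription factors. In mid over progenitor-like cells 4 of 30 measured were higher, against 19.6% of all genes, and 6 were lower, against 17.9%, both near these shares. Zfand5 and Ubb were among the higher ones. Rad23b, a shuttle that carries ubiquitin chains to the cap, was lower, with 29.4 in mid cells against 93.8 in progenitor-like cells. Of 6 assembly factors 4 were lower, led by Psmg1, a chaperone of the alpha ring, with 2.56 in mid cells against 64.5 in progenitor-like cells. Psmg4 and Psmg3, of the same family, followed at −1.92 and −1.41, and Pomp, which matures the core, at −1.26. Ubqln4, another shuttle, was the remaining lower gene. In reticulocyte-like over mid cells 5 of 25 were higher, against 17.4% of all genes, and none was lower, against 13.8%. Ubb, a polyubiquitin gene, stood at 26934 in reticulocyte-like cells against 2498 in mid cells, and it was also higher per cell, with 26.5 UMIs in reticulocyte-like cells against 16.2 in mid cells. Vcp and Uba1 were also among the higher genes, and each was lower in reticulocyte-like cells on plain totals.

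Plasma-like cells, which secrete antibodies, were compared with B-like cells. Immunoglobulin genes took 53.1% of UMIs in plasma-like cells and 1.33% in B-like cells, and the median gene had shifted by −1.04. Of 36 members measured 2 were higher, against 12.4% of 4105 genes, and none was lower, against 9.70%. Psmb5 stood at 105.8 in plasma-like cells and 75.9 in B-like cells, a centred difference of 1.47 (runs 0.71 to 2.34). Psmb6 stood at 112.0 in plasma-like cells and 97.0 in B-like cells, a difference of 1.23 (runs 0.97 to 2.19). Both had that sign in all 7 runs compared. Both encode core subunits with an active site, but Psmb7, which also does, was not called. With a minimum level of 50, Psma5, Psma7, Psmb2 and Psmb4 were called higher as well.

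Most members other than Psmb5 and Psmb6 had a difference between 0 and that of Psmb6. Of all 36, 34 were above 0, with a median of 0.63 (runs 0.40 to 0.94). The alpha ring spanned 0.18 (Psma1) to 0.92 (Psma7), the ATPases 0.18 (Psmc6) to 0.95 (Psmc2), and the lid 0.27 (Psmd11) to 0.81 (Psmd3). The lowest member was Psme1, at −0.46, with 104.5 in plasma-like cells against 312.9 in B-like cells, and Psmd9 stood at −0.01. The other ends were Psmb1 at 0.21 in the beta ring, Psmd4 at 0.12 and Psmd1 at 0.92 in the base, and Psme4 at 0.62 among activators. Psma8, Psmb11, Psmc3ip, Psmd10, Psmd5, Psme2b and Psmf1 fell under the minimum. The direction depends on the centring: uncentred, the median was −0.41 and no gene was higher, while 6 were higher without run 1, 4 without run 6 and 9 with runs weighted equally. Barcodes found in several runs made up 114 of the 393 plasma-like cells, and without such cells 2 genes were again higher, with a median of 0.60. Of the pathway genes 3 of 25 were higher, Vcp, Txnl1 and Ubb, against 12.4% of all genes, and 1 was lower, against 9.70%. Ubb had levels of 1815 in plasma-like cells and 1803 in B-like cells.

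Neutrophil-like cells were next set against progenitors of the granulocyte-monocyte class. No member of 39 was higher, against 14.7% of 4200 genes, and 9 were lower, against 14.0%. Psmd7 differed most, by −1.67 (runs −2.10 to −1.003), with 17.6 in neutrophil-like cells against 102.0 in the progenitors. The other 8 were Psma5, Psmb5, Psma4, Psmc3ip, Psmc5, Psmb2, Psma3 and Psma7, with differences of −1.32 to −1.02. Psmb5 stood at 89.2 in neutrophil-like cells against 306.0 in the progenitors, and Psma5, an alpha ring subunit, at 38.8 in neutrophil-like cells against 145.7 in the progenitors. Each of the 9 was lower in all 7 runs, but Psma7 was no longer called without run 2 or 3, and Psma3 without run 2. Of the 39 members, 37 lay below 0, with a median of −0.61 (runs −0.80 to −0.37).

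The summed core level was 1320.1 in neutrophil-like cells against 3121 in their progenitors, and the cap level 741.4 in neutrophil-like cells against 1645 in the progenitors. The alpha ring had a median of −1.02 and the beta ring of −0.62, from −1.32 (Psmb5) to −0.19 (Psmb7). The lid was lowest at Psmd7 and highest at Psmd14 (−0.36), and the ATPases ran from −1.13 (Psmc5) to −0.35 (Psmc1). Psma1 was the highest alpha gene at −0.39, and the base ran from −0.77 (Psmd1) to −0.39 (Psmd4). Psmd9 at −0.61 and Psme1 at −0.55 were the lowest chaperone and activator. Psmd10 at 0.25 and Psme4 at 0.26 were the members above 0. Psma8, Psmb11, Psme2b and Psmf1 fell under the minimum. Uncentred, 18 members were lower, with no count of all genes on that scale. Of the pathway genes 1 of 22 was higher, against 14.7% of all genes, and 5 were lower, against 14.0%. Among the lower ones was Usp14, a deubiquitinase bound to the cap, with 16.4 in neutrophil-like cells against 68.6 in the progenitors.

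Macrophage-like cells were next set against the monocyte-like class. Levels and differences are over all 2067 macrophage-like and 703 monocyte-like cells, and run ranges are from the 5 runs with 20 cells of both. Of 38 members none was higher, against 8.42% of 5585 genes, and 2 were lower, against 6.23%. Psmd8 differed by −1.16 (runs −1.37 to −0.74), with 144.6 in macrophage-like cells against 339.2 in monocyte-like cells. Psma7 differed by −1.14 (runs −1.54 to −0.05), with 348.7 in macrophage-like cells against 786.3 in monocyte-like cells. Over all members the median was −0.45, with runs from −0.62 to 0.18. The count of lower genes was 4 without run 2, 0 without run 7 and 0 with runs weighted equally, so it rests on few runs. At the other end Psma6, an alpha ring subunit, stood at 0.80, with 307.1 in macrophage-like cells against 173.0 in monocyte-like cells, but 1 of 5 runs had the other sign.

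The 3 macrophage-like clusters were unlike each other, and the one with leading genes of island macrophages, such as Vcam1 and Hmox1, held 456 of the 2067 cells. The class as a whole also carried monocyte markers, with 10 of 15 at 50 or more and a sum of 7026, against 13117 in monocyte-like cells. Its 19 macrophage markers summed to 21781, against 478.2 in monocyte-like cells. The contrast is thus one of mixed classes. In a cluster of 1232 cells led by Fcgr4, with a median of 820.5 UMIs, the core summed to 4634 and Psma6 alone to 726.5. In a cluster of 456 cells led by Cd5l, a gene of tissue macrophages, the core summed to 1892 and Psma6 to 135.5. A second cluster led by Fcgr4, of 379 cells with a median of 6481 UMIs, had 2245 and 239.2. When clusters of low depth were left out 8 members were lower in macrophage-like than in monocyte-like cells. The beta ring spanned −0.89 (Psmb5) to −0.58 (Psmb7), the ATPases −0.57 (Psmc3) to −0.03 (Psmc1), the lid −1.16 (Psmd8) to −0.07 (Psmd11), and the activators −0.55 (Psme2) to 0.65 (Psme3). The base lay between −0.16 (Psmd1) and 0.16 (Psmd4), and the chaperones between −0.06 (Psmd9) and 0.07 (Psmd10). Psma8, Psmb11, Psmc3ip, Psme2b and Psmf1 fell under the minimum. Of the pathway genes Nfe2l1, a transcription factor of proteasome genes, was higher, with 101.2 in macrophage-like cells against 25.9 in monocyte-like cells, and Sem1, a small lid subunit, was lower, with 490.4 in macrophage-like cells against 1265 in monocyte-like cells. The pooled difference of Sem1, −1.34, lay outside its run range of −1.09 to −0.77.

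**Figure D5:**
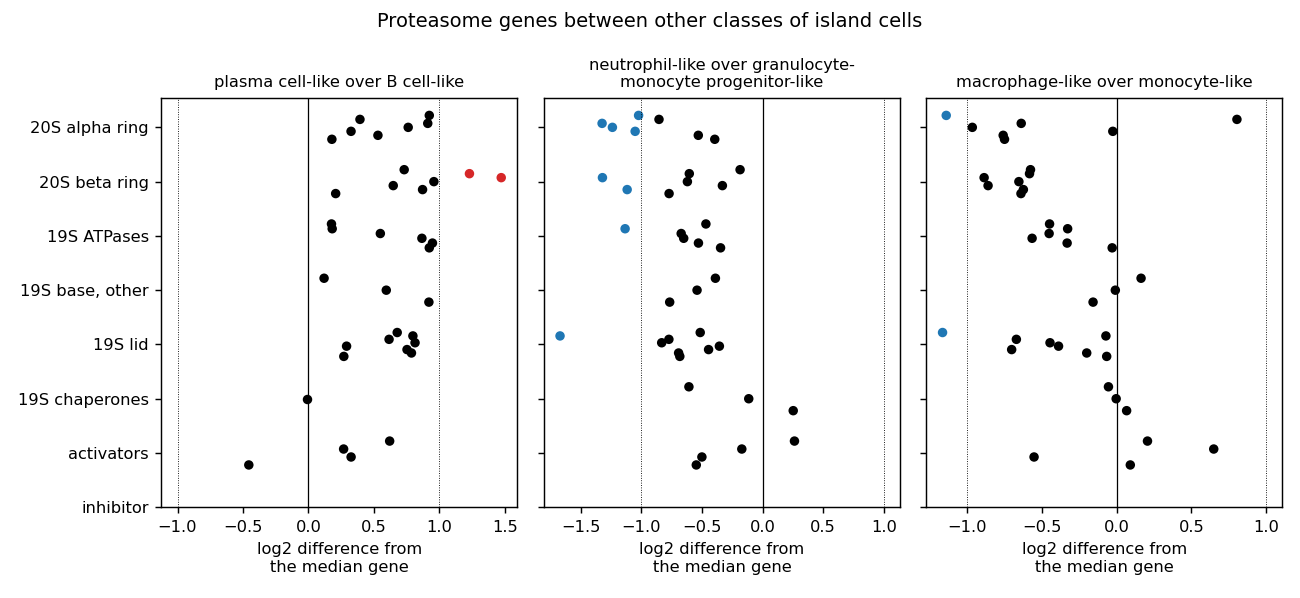
Centred log2 difference of the members in plasma-like over B-like cells, neutrophil-like over granulocyte-monocyte progenitor-like cells and macrophage-like over monocyte-like cells, with 1 point a gene in rows by role, blue for lower and red for higher by the 2-fold rule. Points lie mostly to the right on the left panel (median 0.63) and to the left on the other panels (medians −0.61 and −0.45); Psmf1 was under the minimum in all 3, and Psmc3ip is not drawn.

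The members that were hardly measured complete the set. Psmb11 had 3 UMIs in the named classes together and Psma8 had 100, with a level of 2.68 or less in every class. Psme2b reached 28.1 in B-like and 23.7 in macrophage-like cells, and 1.09 or less in the erythroid stages. Psmc3ip, which acts in meiotic recombination, was the highest of these in the erythroid cells, at 47.0, 52.4, 29.2, 4.41 and 3.80 over the stages, and stood at 36.5 in granulocyte-monocyte progenitor-like cells.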

How the data were processed

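Per the values, the deposited table holds raw counts of UMIs for each gene in each cell. Cell Ranger 5.0.0 and Seurat 3.1.5, with the genome mm10, are named in the submitters' processing notes, while filters applied before deposit are not stated there. Cells held 500 to 83490 UMIs. The labels give 8 libraries in 4 groups, no column of the table names one, and every column is a cell barcode, so the comparisons planned between labelled groups had no samples and no count model was fitted.

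Scanpy 1.11.5 under Python 3.11.15 scaled each cell and clustered the cells on 2000 variable genes without the members and the pathway lists (30 components, 15 neighbours, Leiden resolution 1, seed 0, leidenalg 0.10.2). Scrublet called 17 doublets (0.068%), too few to have worked, so the cells with the highest doublet scores, 0.8% per 1000 cells of each run, were left out, 833 in all, which left 24109. In 3 clusters, with 1407 cells, no class could be named. Members, lists, stages and comparisons were chosen with earlier results of these data known. Genes named in each comparison are the members past 2-fold with 1 sign in every run, up to 10 a direction, the highest and lowest of each role, those under the minimum level, and up to 3 pathway genes a list. Intervals and floors cover counting error only. The tables were computed in pandas 2.3.3 and scipy 1.17.1, and the differences were tested on simulated data. Alternatives changed the centring, the total, the added 10, the minimum level, the globin limits, the clustering, the doublets, the cell filter and the cells with repeated barcodes, or left out 1 run. Weighting runs equally and leaving out clusters of low depth were added after the data were seen. Promoter windows come from RefSeq, and gene positions from GENCODE M21. Some genes of the pathway lists are counted but not reported by name here.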

Additional observations from a re-analysis of the deposited data

How the results depend on the processing

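No paired analysis was possible because the table's columns carry no sample or replicate number of the labels. The cell classes were instead compared within each barcode run. Of 321 alternative values for the counts and medians, 270 stayed close to the reported ones, 44 moved and 7 changed sign. Shares of all genes were counted under the reported settings only. Counts of members under an alternative therefore have no such share beside them and are not read as particular to these genes. The cause of a change was not tested unless the alternative's construction shows it.

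In mid over progenitor-like cells, uncentred plain totals gave 0 higher, 24 lower and a median of −1.15, runs weighted equally gave 10 lower, and leaving out clusters of low depth gave 4 lower. Leaving out 1 run gave 2 higher, 5 to 8 lower and medians of −0.48 to −0.31.

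In reticulocyte-like over mid cells the median of 0.13 became −0.89 without a minimum level, −1.01 uncentred, −2.47 on uncentred plain totals, −0.051 under a stricter cell filter, 0.34 with other globin limits and 0.30 when 1 was added in place of 10. The 7 higher genes became 2 without a minimum, 1 uncentred and 0 on plain totals, where Psma2 stood at −1.99, Psmd4 at −1.35, Psmd8 at −1.92, Psme1 at −1.27, Psme2 at −1.48, Psme3 at −0.51 and Psmf1 at −1.75. The 2 lower genes became 20 without a minimum, 20 uncentred, 38 on plain totals, 0 with other globin limits, and 1 with the members kept in the clustering, without repeated barcodes or with runs weighted equally. Leaving out 1 run gave 7 to 8 higher, 1 to 2 lower and medians of 0.0019 to 0.21.

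In plasma-like over B-like cells the median of 0.63 became −0.19 without a minimum, −0.41 uncentred, −0.41 on plain totals, 0.85 with a minimum of 50 and 0.84 with 1 added. The 2 higher genes became 0 without a minimum, 0 uncentred, 0 on plain totals, 6 with a minimum of 50, 12 with 1 added and 9 with runs weighted equally, and the count of lower genes became 1 without a minimum, 2 uncentred and 2 on plain totals. Leaving out 1 run gave 2 to 6 higher, 0 lower and medians of 0.56 to 0.68.

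In neutrophil-like over granulocyte-monocyte progenitor-like cells the median of −0.61 became −0.88 without a minimum, −0.96 uncentred and −0.96 on plain totals. The 9 lower genes became 17, 18 and 17 in that order. Leaving out 1 run gave 7 to 9 lower, 0 higher and medians of −0.64 to −0.58. In macrophage-like over monocyte-like cells the 2 lower genes became 1 at resolution 0.5, 0 with runs weighted equally and 8 without clusters of low depth. Leaving out 1 run gave 0 to 4 lower, 0 higher and medians of −0.54 to −0.26.

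Depth limits the last stage most: reticulocyte-like cells held 1839867 UMIs outside globin, where 3 UMIs, the limit a count of 0 allows, come to a level of 1.63.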
